A study of Mus musculus with 6 samples.

Results

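The TGFβ ligands and the receptors that bind them were examined in mouse cardiac fibroblasts treated with vehicle or TGFβ. The set was chosen by gene symbol and comprised 8 genes of the 25140 listed: the ligands Tgfb1, Tgfb2 and Tgfb3, the signalling receptors Tgfbr1, Tgfbr2 and Acvrl1, and the co-receptors Tgfbr3 and Eng. All 8 were among the 14334 genes expressed highly enough to be tested. The cells were primary fibroblasts of passage 1 from adult hearts of C57BL/6 mice, with no transgene or deletion named in either group. The labels and the study's methods name cardiac fibroblasts, while its results text names embryonic ones (MEFs). Both groups were kept in 1% serum before treatment (16 h per the labels, 24 h per the study's methods) and, per those methods, also during it. Of the cultures 3 received vehicle and 3 received TGFβ at 10 ng/ml for 24 h. RNA was sequenced in 6 libraries, here lettered A, B and C for vehicle and D, E and F for TGFβ. The study describes them as biological replicates, and which cultures came from which animals is not given in the sources used here.

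TGFβ is secreted as a dimer held inactive by its own propeptide, which latent TGFβ-binding proteins tether to the matrix until integrins or proteases free it. Free ligand is bound by the type II receptor TGFBR2, which recruits and phosphorylates a type I receptor, usually ALK5 (Tgfbr1) and in some cells ALK1 (Acvrl1), and the type I receptor in turn phosphorylates SMAD proteins that enter the nucleus. Betaglycan (Tgfbr3) and endoglin (Eng) bind ligand without a kinase of their own, and in the heart this pathway is best known for turning fibroblasts into contractile, matrix-secreting myofibroblasts.

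After 24 h of TGFβ, Tgfbr3 showed the largest change of the 8, with transcripts 3.24-fold lower than in vehicle. The ligands moved in opposite directions: Tgfb1 and Tgfb3 were higher by 1.7-fold and 1.52-fold, whereas Tgfb2 fell to 0.733 of its vehicle level. Among the signalling receptors Tgfbr2 was higher, Acvrl1 was lower and Tgfbr1 did not pass the test. Eng, the most abundant of the set, was 1.17-fold higher. In all, 7 of the 8 genes passed the test (4 higher, 3 lower), an adjusted p under 0.05 from the quasi-likelihood test of edgeR over all genes. Of all genes tested, 40.7% passed, 20.5% higher and 20.1% lower. Per length of exons, the vehicle levels of the 8 genes lay above those of 67.8 to 98.0% of genes tested. The share that passed among genes of like level was not computed.

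The promoters of Tgfb1 and Tgfb2 are shown because these ligands moved in opposite directions. They are the 250 bases before the RefSeq transcription start (build GRCm38.p6), written 5′ to 3′ on the strand of the gene, at chr7:25686752-25687001 on the plus strand and chr1:186705990-186706239 on the minus strand. Capitals mark matches, on either strand, to the motifs searched: a TATA box (TATAAA), an E-box (CACGTG), an AP-1 site (TGANTCA), a GC box (GGGCGG) and a SMAD element (CAGACA).
Tgfb1: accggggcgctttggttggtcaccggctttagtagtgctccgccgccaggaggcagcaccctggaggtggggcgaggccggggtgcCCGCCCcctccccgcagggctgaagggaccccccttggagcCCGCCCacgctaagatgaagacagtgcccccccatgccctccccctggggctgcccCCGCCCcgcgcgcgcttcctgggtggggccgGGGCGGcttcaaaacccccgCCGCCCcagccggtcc
Tgfb2: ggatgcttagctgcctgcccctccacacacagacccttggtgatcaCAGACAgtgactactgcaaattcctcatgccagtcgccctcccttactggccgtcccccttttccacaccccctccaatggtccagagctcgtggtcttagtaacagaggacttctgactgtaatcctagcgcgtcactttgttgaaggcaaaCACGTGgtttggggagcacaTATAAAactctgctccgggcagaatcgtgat
The Tgfb1 promoter held 5 GC boxes in this window, from position -164 to position -11, with a further match just after the start at 11 to 16, and none of the other motifs. The Tgfb2 promoter held a SMAD element at -204 to -199, an E-box at -51 to -46 and a TATA box at -31 to -26, with no GC box. Over the window of 300 bases that adds the first 50 transcribed bases, GC content was 77.0% for Tgfb1 and 54.3% for Tgfb2, against a median of 52.7% over 32851 RefSeq promoters. Of those promoters 35.7% held a GC box, 13.6% a TATA box, 7.15% an E-box, 21.0% a SMAD element and 7.81% an AP-1 site. A match describes the letters of the window and not a bound factor. RefSeq promoters were matched for 5 of the 8 genes, the others with one being Tgfbr1, Tgfbr2 and Eng. Those of Tgfbr2 and Eng, both higher with TGFβ, held none of the motifs. Tgfbr1, which did not pass the test, had a promoter with 2 GC boxes and a GC content of 74.7%. Its other promoter held a SMAD element, at 52.0% GC. Whether motifs go with the direction of change was not tested.

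Depth was even, with 27851677 to 31072338 counts per library. Library B of the vehicle group and library E of the TGFβ group stood apart from the others of their group: the chi-square per gene, a measure of how far the counts of a pair of libraries differ, was 12.7 to 25 for pairs within a group that included B or E, against 7.41 between A and C and 10.7 between D and F. The labelled cell type was checked on marker genes. All 10 fibroblast markers and all 5 transcription factors of cardiac fibroblasts (Tcf21, Tbx20, Gata4, Gata6 and Hand2) were detected, and with TGFβ 7 and 3 of them, respectively, were lower and none higher. Endothelial transcripts were present, with all 12 markers tested and none passing the test, and their sum was 537, 835 and 602 CPM (a counts-per-million scale, corrected for composition by TMM factors) in A, B and C and 538, 685 and 489 CPM in D, E and F. The leukocyte sum, most of it Lyz2, was 252, 363 and 263 CPM in vehicle and 232, 323 and 216 CPM with TGFβ, so both sums were highest in B and in E. The sum of the fibroblast markers was also highest of each group there, at 63090 CPM in B and 55680 CPM in E. That of the cardiac fibroblast transcription factors was lowest there, at 1034 CPM in B and 745.6 CPM in E. Of the 10 leukocyte markers 8 were tested and 1, Cd14, was lower, while the B-cell marker Cd79a had at most 1 count in a library and Cd3e was not among the genes listed. Of 7 pericyte and smooth muscle markers 5 did not pass the test, Cspg4 was higher and Notch3 lower, with a median log2 fold change of 0.15. Their sum was 141 to 191 CPM with TGFβ against 267 to 295 CPM in vehicle, a difference carried by Notch3: the other 6 summed to 77.6 to 130.8 CPM with TGFβ and 62.6 to 90.6 CPM in vehicle. Cardiomyocyte markers summed to 27.4 to 59.7 CPM, nearly all Tnnt2. Of the 8 on the list 3 were tested and none passed, while Myh6, Actn2, Ryr2, Myl2 and Mybpc3 were under the filter on low counts. Mesothelial markers summed to 91.8, 35.3 and 25.1 CPM in A, B and C and to 16.8, 20.2 and 48.6 CPM in D, E and F. Both of these sums were highest in A and in F of their groups, and none of the 6 mesothelial markers passed the test. In bulk RNA, fewer cells of a type and less RNA per cell cannot be told apart.

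Of the ligands, Tgfb1 encodes the isoform most often named in fibrosis. Its expression, in CPM, was 96.3, 136 and 101 in vehicle libraries A, B and C and 164, 244 and 157 in TGFβ libraries D, E and F. The groups did not overlap, with B and E the highest of their groups. The mean was 111 ± 22.0 CPM (SD, n = 3) in vehicle and 188 ± 47.9 CPM with TGFβ. The log2 fold change was 0.76 (SE 0.19, 95% interval 0.32 to 1.21, edgeR adjusted p = 0.0153). Its spread between replicates was wide, a biological coefficient of variation of 16.5%, larger than for 89.1% of genes. The call was lost without library A (log2 fold change 0.67, edgeR adjusted p = 0.0518) and without library C (log2 fold change 0.70, edgeR adjusted p = 0.0544). Without both B and E the log2 fold change was 0.70. In the libraries that remained without B and E, the endothelial sum was 537 to 602 CPM in vehicle and 489 to 538 CPM with TGFβ, and the leukocyte sum 252 to 263 CPM and 216 to 232 CPM. The part of these cells in the spread of Tgfb1 was not tested.

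Tgfb2 encodes an isoform that lacks the integrin-binding RGD motif in its propeptide. It was at 107.9, 88.0 and 91.9 CPM in vehicle and at 67.4, 65.8 and 77.9 CPM with TGFβ. All TGFβ libraries were below all vehicle libraries. The means were 96.0 ± 10.6 and 70.4 ± 6.58 CPM (SD, n = 3), a log2 fold change of -0.45 (SE 0.09, 95% interval -0.66 to -0.24, edgeR adjusted p = 0.00626). Tgfb3, whose product shares the RGD motif with that of Tgfb1, was at 155, 135 and 148 CPM in vehicle and at 227, 207 and 234 CPM with TGFβ. The groups were well separated, with B and E the lowest of each. Both Tgfb2 and Tgfb3 were highest of their groups in A and in F, the libraries with the highest mesothelial sum of each group. The cardiomyocyte sum was highest there too, but it was nearly all Tnnt2, and most of that list was under the filter on low counts. The part of other cell types in the levels of Tgfb2 and Tgfb3 was not tested. The log2 fold change of Tgfb3 was 0.61 (SE 0.07, 95% interval 0.45 to 0.76, edgeR adjusted p = 0.00037), from 146 ± 10.4 to 222.5 ± 14.0 CPM. Tgfb3 overlaps Ttll5 on the opposite strand. The libraries were stranded but whether strand was used in counting is not given in the sources used here. The exons of Tgfb3 and Ttll5 share 0 bases, and Ttll5, a tubulin glutamylase, had 16.2% as many counts as Tgfb3 and was higher too (log2 fold change 1.09).

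**Figure D1:**
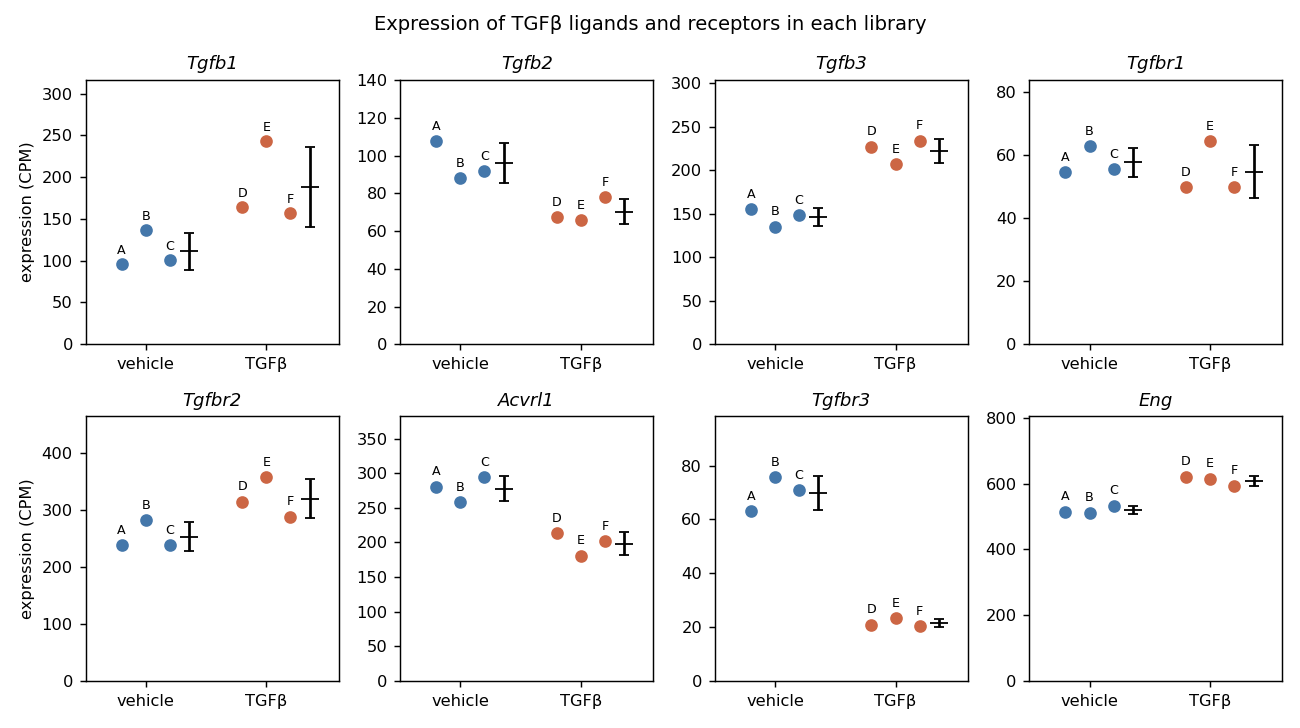
Expression of the 8 genes in each library, in CPM on axes that start at 0. Letters name the libraries, blue points are vehicle and orange points TGFβ, and bars give the mean ± SD of 3 libraries. The groups overlap for Tgfbr1 and for none of the other genes, and library E is the highest point of Tgfb1 at 244 CPM.

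Of the signalling receptors, the type II receptor Tgfbr2 was at 238, 282 and 238 CPM in vehicle and at 314, 356 and 288 CPM with TGFβ. The lowest TGFβ library was only just above the highest vehicle library, B. The means were 252.5 ± 25.3 and 319.5 ± 34.5 CPM (SD, n = 3), with a log2 fold change of 0.34 (SE 0.09, 95% interval 0.12 to 0.56, edgeR adjusted p = 0.0230). This call was lost without A (log2 fold change 0.30), without C (0.30), without D (0.35) or without E (0.25), with edgeR adjusted p between 0.0591 and 0.0803. The direction held each time, and without D the log2 fold change was no smaller than with all libraries. Without both B and E the log2 fold change was 0.34.

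The type I receptor Tgfbr1 was at 54.6, 63.0 and 55.7 CPM in vehicle and at 49.96, 64.6 and 49.8 CPM with TGFβ. Library E was the highest of all 6 and the other TGFβ libraries the lowest, so the groups overlapped. The log2 fold change was -0.08 (SE 0.11, edgeR adjusted p = 0.609), and its 95% interval ran from -0.33 to 0.17. The result turned on library E: without it Tgfbr1 was lower with TGFβ by a log2 fold change of -0.22 (edgeR adjusted p = 0.0438), and without both B and E the log2 fold change was -0.15. Acvrl1, the type I receptor that passes the signal to the SMADs otherwise used by bone morphogenetic proteins, was at 281, 258 and 294 CPM in vehicle and at 213, 181 and 201 CPM with TGFβ. All TGFβ libraries lay below all vehicle libraries. The means were 277 ± 18.2 and 198 ± 16.3 CPM (SD, n = 3), a log2 fold change of -0.48 (SE 0.07, 95% interval -0.65 to -0.32, edgeR adjusted p = 0.0015). Acvrl1, also known from endothelium, was lowest of the vehicle group in B and lowest of the TGFβ group in E, the libraries with the highest endothelial sum of each group. The part of endothelial cells in its level was not tested.

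The co-receptors moved apart. Tgfbr3, which presents ligand, TGFβ2 above all, to the type II receptor, was at 63.0, 75.6 and 70.8 CPM in vehicle and at 20.9, 23.3 and 20.4 CPM with TGFβ. The highest TGFβ library was below the lowest vehicle library by a wide margin. The means were 69.8 ± 6.37 and 21.6 ± 1.57 CPM (SD, n = 3), a log2 fold change of -1.70 (SE 0.08, 95% interval -1.88 to -1.51, edgeR adjusted p = 8.7e-06). Tgfbr3 was the only one of the 8 genes with a log2 fold change beyond 1 in size, and 192 of all genes tested had a lower one. Leaving out any 1 library gave -1.76 to -1.63. Eng, best known in endothelium, was at 514, 512 and 533 CPM in vehicle and at 619, 613 and 592 CPM with TGFβ. The 6 values were close within each group and did not overlap. The means were 520 ± 11.5 and 608 ± 14.2 CPM (SD, n = 3), a log2 fold change of 0.23 (SE 0.04, 95% interval 0.13 to 0.33, edgeR adjusted p = 0.0044). Eng was neither highest in B nor in E, and the part of endothelial cells in its level was not tested. The exons of Eng share 61 bases with Fpgs on the opposite strand, a gene with 3.79% as many counts and a log2 fold change of 0.44.

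**Figure D2:**
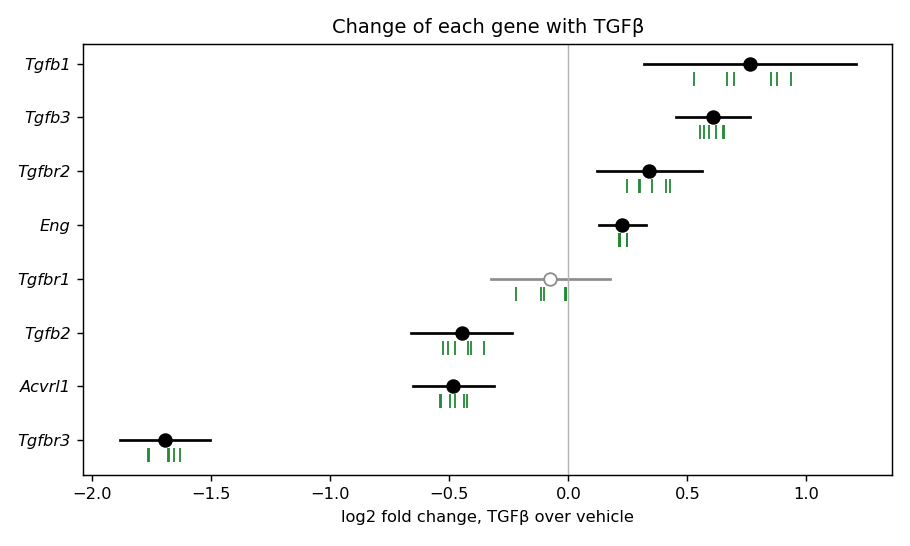
Log2 fold change of each gene, TGFβ over vehicle, with the 95% interval derived from the edgeR test. Filled points passed an adjusted p of 0.05, the open point (Tgfbr1) did not, and green ticks give the value with each library left out in turn. Tgfbr3 at -1.70 lies apart from the other genes, which lie between -0.48 and 0.76.

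Over the set, 7 of the 8 genes had groups that did not overlap, against 53.3% of all genes tested. Of these, 4 were higher with TGFβ (27.2% of all genes) and 3 lower (26.1%). For each of these genes the two-sided exact permutation test of CPM gave p = 0.1, the smallest p that 3 against 3 libraries allow, and for Tgfbr1 it gave p = 0.6. Within the groups, 4 of the 8 (Tgfb1, Tgfbr1, Tgfbr2 and Tgfbr3) were highest in both B and E, as were 19.5% of all genes tested, and 3 of the 8 (Tgfb2, Tgfb3 and Acvrl1) were lowest in both, as were 20.0%. Of the 12 endothelial markers 11 were highest in both libraries and 1, Tek, was lowest in both. Of the 8 leukocyte markers tested 7 were highest in both. Of the 10 fibroblast markers 4 were highest in both and 3 lowest in both. Of the 5 cardiac fibroblast transcription factors 2 were lowest in both and 0 highest in both. Without both B and E all 8 genes passed the test, 4 higher and 4 lower, Tgfbr1 being the one added. Since B and E were left out for standing apart within their groups, this narrows the spread by construction, and the calls among the 4 remaining libraries are no independent support.

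**Figure D3:**
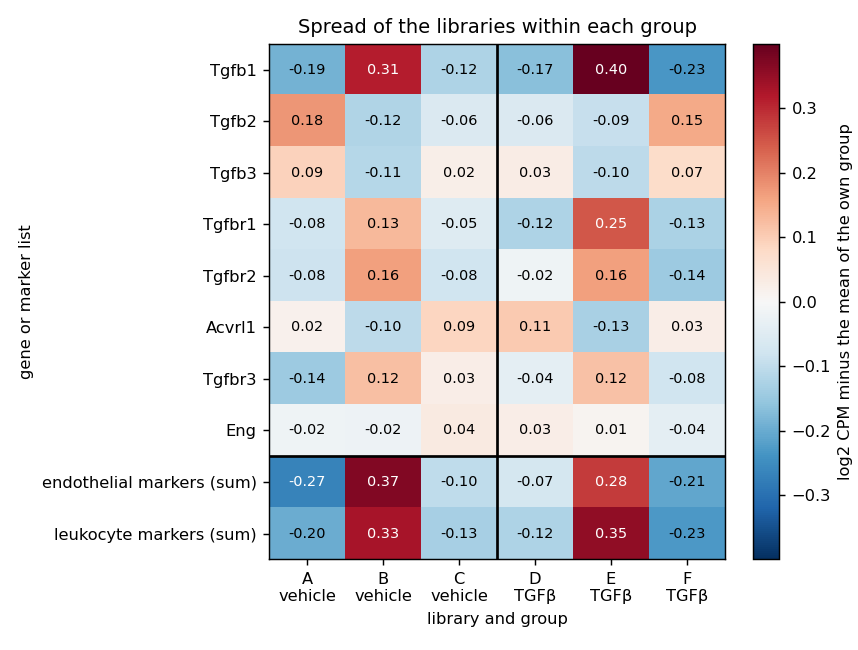
Deviation of each library from the mean of its own group, in log2 CPM, for the 8 genes and for the summed endothelial and leukocyte markers. Red is above and blue below the group mean. Libraries B and E are at 0.31 and 0.40 for Tgfb1, at 0.37 and 0.28 for the endothelial sum and at 0.33 and 0.35 for the leukocyte sum, whereas Eng stays within 0.04.

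Levels of different genes were compared only after division by length, in CPM per kb of the union of annotated exons. In vehicle the order was Eng (128 CPM per kb), Acvrl1 (65.1), Tgfb3 (43.2), Tgfbr2 (30.8), Tgfb1 (22.1), Tgfb2 (16.6), Tgfbr3 (10.7) and Tgfbr1 (8.84). In this order only the neighbours Tgfbr3 and Tgfbr1 overlapped between libraries. With TGFβ, Tgfb3 came after Eng at 65.8 CPM per kb and Acvrl1 next at 46.5 CPM per kb, and Tgfbr3 became the least abundant at 3.29 CPM per kb. In the TGFβ group Acvrl1 and Tgfbr2 overlapped, as did Tgfbr2 and Tgfb1. The order in the middle depended on the length used, since the exon union of Tgfb1 is 5042 bases and its principal transcript 2175 bases, and those of Tgfbr2 are 8187 and 3476 bases. By the principal transcript Tgfbr2 came after Acvrl1 in vehicle and after Eng with TGFβ, and in vehicle 5 of the 8 genes kept their place. Eng came first, and Tgfb2, Tgfbr3 and Tgfbr1 came in the same last places, by either length.

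**Figure D4:**
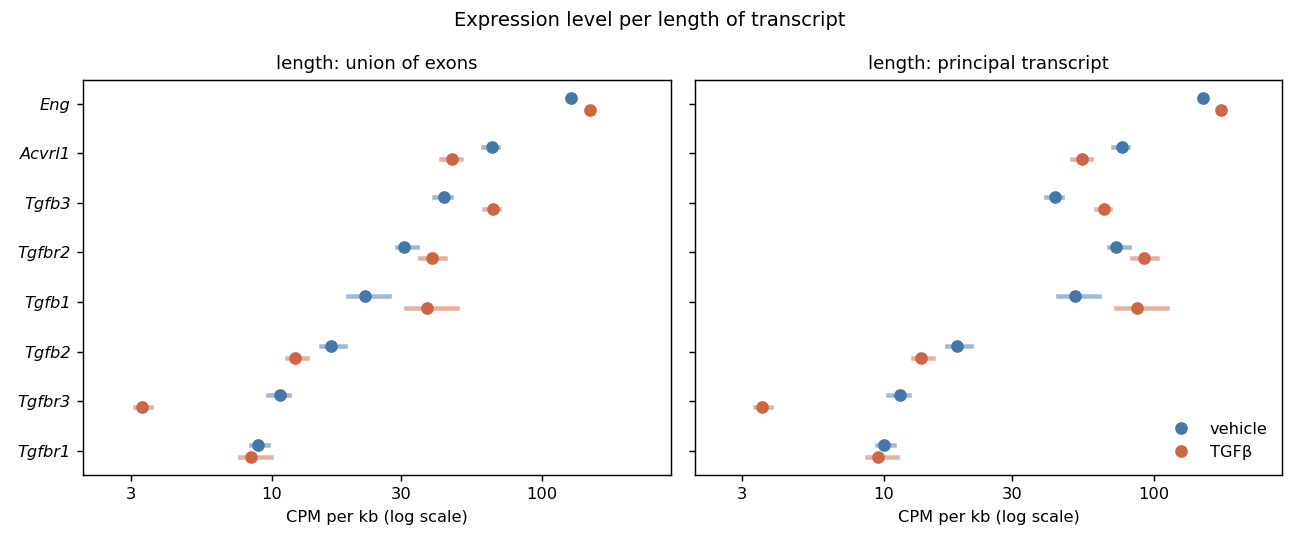
Level of each gene per length, in CPM per kb on a log axis, with the length taken as the union of exons (left) or as the principal transcript (right). Points are means of 3 libraries and lines run from the lowest to the highest library. Eng is the highest in both panels, and Tgfbr3 with TGFβ the lowest, at 3.29 and 3.54 CPM per kb.

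The summed ligand level per length was 81.8 ± 2.02 CPM per kb in vehicle and 115 ± 4.97 CPM per kb with TGFβ (SD, n = 3), with no overlap between the groups (exact permutation p = 0.1). Tgfb2 made up 22.3, 18.5 and 19.9% of this sum in vehicle and 10.5, 9.4 and 11.8% with TGFβ. Its share was lower in every TGFβ library, whereas the shares of Tgfb1 and Tgfb3 overlapped between the groups. Tgfb3 was the largest of the ligand shares by exon union, at 48.5 to 55.0% in vehicle and 50.6 to 60.8% with TGFβ. By the principal transcript its mean share was 38.3% in vehicle and 40.0% with TGFβ, below that of Tgfb1 at 45.0 and 51.6%, so the order of these ligands depended on the length used.

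Ratios of counts within a library need no scaling between libraries. Of 7 pairs compared, 5 did not overlap between the groups, each with an exact permutation p of 0.1 and an adjusted p of 0.14 over the 7 pairs, so none could pass 0.05 at this number of libraries. Genes recur across the pairs, so the ratios restate the changes given above and add no separate evidence. The share of non-overlapping pairs among all genes was not computed, and of single genes tested 53.3% did not overlap. The log2 ratio of Tgfb3 to Tgfb2 was 0.52, 0.61 and 0.69 in vehicle and 1.75, 1.65 and 1.59 with TGFβ, a difference of 1.05. The log2 ratio of Tgfb2 to Tgfb1 was lower by a difference of -1.20. The log2 ratio of Tgfb3 to Tgfb1 overlapped (difference -0.14, exact permutation p = 0.6), and the difference turned to 0.11 without library E. Among the receptors, the log2 ratio of Tgfbr3 to Tgfbr2 was -1.92, -1.90 and -1.75 in vehicle and -3.91, -3.93 and -3.82 with TGFβ. Betaglycan transcripts were thus 4.09-fold fewer per type II receptor transcript with TGFβ. The difference was -0.42 for Tgfbr1 to Tgfbr2 and 1.92 for Eng to Tgfbr3, both with no overlap. For Acvrl1 to Tgfbr1, the type I receptors, it was -0.40, and the groups overlapped (exact permutation p = 0.2).

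The rest of the pathway was described by 6 lists of 76 genes in all, chosen with earlier results of these data known. Of the 73 tested, 45 passed (31 higher, 14 lower), or 61.6% against 40.7% of all genes tested, and the median log2 fold change was 0.12 against 0.00 over all genes. Without the list of known target genes, 33 of 58 passed (20 higher, 13 lower), or 56.9%, with a median of 0.04. The targets Pmepa1, Skil and Smad7 also stand in other lists and were still counted there. The counts of each list below are to be read beside the 20.5% higher and 20.1% lower of all genes tested. Other receptors of the family had 2 of 7 tested higher and 1 lower. Bmpr1b, a type I receptor for bone morphogenetic proteins, was higher at a low level (log2 fold change 1.43, from 1.04 to 2.81 CPM), and Acvr1, which encodes ALK2, was higher by 0.31. The activin type I receptor gene Acvr1b was lower by a log2 fold change of -0.98 (62.1 ± 3.08 to 31.5 ± 2.47 CPM). Acvr1c and Amhr2 were under the filter on low counts, with at most 6 counts in a library.

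Of the latent complex and its activators, 8 of 15 tested were higher and 2 lower, with a median log2 fold change of 0.21. Thbs1, the thrombospondin that can activate latent TGFβ, was higher by a log2 fold change of 1.80 (1388 ± 208.5 to 4818 ± 479 CPM). Ltbp1, which tethers the latent ligand to the matrix, was higher by 1.59 (48.1 ± 2.95 to 144.9 ± 16.9 CPM). The gelatinases Mmp9 and Mmp2 were lower, by log2 fold changes of -0.98 and -0.33, Mmp9 at a low level (5.40 to 2.72 CPM, edgeR adjusted p = 0.0397). Itgb6, the integrin subunit of epithelia, was under the filter on low counts. Of the 7 extracellular TGFβ-binding proteins none was higher and 3 were lower, with a median of -0.52, in a list too short to set against the shares of all genes. The lowest values were those of A2m, the protease inhibitor alpha-2-macroglobulin (-1.30, at 5.79 CPM in vehicle), and of the matrix proteoglycan Fmod (-0.73), and Dcn, the proteoglycan decorin, was lower by -0.52 and is also a fibroblast marker above.

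Inside the cell, none of 8 SMADs was higher and 4 were lower, with a median log2 fold change of -0.17. Smad3, which carries the TGFβ signal to DNA, was lower by -0.77 (133 ± 5.47 to 77.8 ± 4.41 CPM). Smad9, of the branch used by bone morphogenetic proteins, was lower by -1.41 (12.3 ± 0.50 to 4.60 ± 0.76 CPM). Of 21 intracellular regulators 10 were higher and 3 lower. Pmepa1 and Ldlrad4, related membrane proteins that limit SMAD phosphorylation, were higher by log2 fold changes of 1.55 and 1.01. The ubiquitin ligase Nedd4l was lower by -0.85, and Dab2, an adaptor that binds the receptors, by -0.63.

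Known TGFβ target genes served as a check of the treatment. It is not an independent check, since the lists were chosen with earlier results of these data known. Of 18 tested, 13 were higher and 1 lower, with a median log2 fold change of 0.97. Il11, a cytokine of the interleukin-6 family, was the highest at 2.96, though from 0.77 CPM in vehicle, followed by the actin-binding calponin Cnn1 at 1.86. The matricellular genes Ccn2 and Postn were higher by 1.49 and 1.55, and the smooth muscle actin gene Acta2 by 1.03. Junb, an AP-1 subunit, was lower by -0.59. Smad7, the inhibitory SMAD, did not pass the test (log2 fold change 0.02, edgeR adjusted p = 0.881). Pmepa1, Skil and Smad7 each stand in 2 of the lists.

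**Figure D5:**
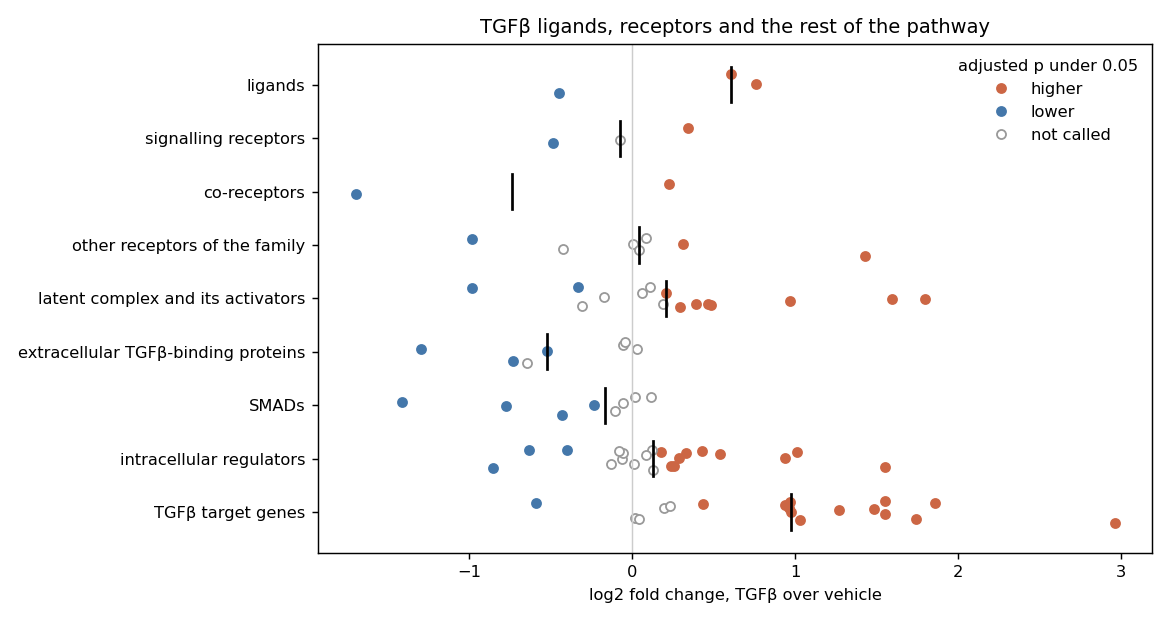
Log2 fold change, TGFβ over vehicle, of each gene of the set and of the 6 pathway lists, one point per gene. Orange points passed the test as higher, blue as lower, open points did not pass, and black lines are medians. The target genes have a median of 0.97, the binding proteins and SMADs have no orange point, and Tgfbr3 at -1.70 is lower than any other gene shown.

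For each gene of the set, the genes nearest in pattern over the 6 libraries were found by the root mean square distance of log2 CPM centred on the vehicle mean. Nearest to Tgfb1 were Rap1gap2 (distance 0.09), Nxph4 (0.10) and Gja1 (0.11). Nearest to Tgfb2 were Tmpo (0.05), Arhgap11a (0.06) and Anln (0.06). For Tgfb3 they were Arl10, Tnfrsf10b and Per2, all within 0.03. The distances for Tgfb1 were the widest of the 8 genes, and those for Eng the narrowest. Tgfbr1 was nearest to Slc27a1, Pald1 and Smco4 (0.03 to 0.05), and Tgfbr2 to Rin3, Plod1 and Sf3b4 (0.02 to 0.05). Acvrl1 was nearest to Evc, Rnase4 and Arsg (0.02 to 0.03), and Eng to Psma5 and Ykt6 (both 0.02). Nearest to Tgfbr3 were Selenop (0.06), Sorl1 (0.06) and Islr (0.07), which were lower with TGFβ by log2 fold changes of -1.75, -1.66 and -1.73. Since the distance includes the shift with TGFβ, genes near in pattern have similar fold changes by construction.

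In the mm10 annotation of GENCODE M21, all 8 are protein-coding genes. Tgfb1 (ENSMUSG00000002603) lies at chr7:25687002-25705077 on the plus strand, Tgfb2 (ENSMUSG00000039239) at chr1:186622792-186705989 on the minus strand and Tgfb3 (ENSMUSG00000021253) at chr12:86056745-86079041 on the minus strand, and the principal transcript of each has 7 exons. Tgfbr1 (ENSMUSG00000007613) lies at chr4:47353222-47414931 on the plus strand, Tgfbr2 (ENSMUSG00000032440) at chr9:116084293-116175360 on the minus strand and Acvrl1 (ENSMUSG00000000530) at chr15:101128522-101145336 on the plus strand. Tgfbr3 (ENSMUSG00000029287) covers 183.1 kb at chr5:107106570-107289629 on the minus strand, and Eng (ENSMUSG00000026814) lies at chr2:32646595-32682669 on the plus strand. Windows of 75 bases, the length of a read, were searched in the sense strand of other genes' transcripts. No window in the principal transcript of Tgfb1, Tgfb2, Tgfb3, Tgfbr1, Tgfbr2, Acvrl1 or Eng occurs there. In Tgfbr3 3.74% of windows also lie in Gm43422, which had 1 count in all libraries. The opposite strand was not searched. Genes there share 257 (Gm48008) and 163 (Gm37804) exon bases with Tgfb3, 127 (Gm16031) with Acvrl1 and 124 (Gm29491) with Tgfb2. They had 10, 5, 0 and 4 counts in all libraries.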

How the data were processed

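RNA-seq of 6 libraries (poly(A)-selected, stranded, single-end reads of 75 bases) was analysed from a table of raw read counts per gene deposited by the authors, aligned to mm10 per the labels. The aligner, the counting tool and its strand setting are not given in the sources used here. The table also holds the authors' own DESeq2 comparison (mean, fold change, p-values), which was not used. Its count columns name the group and not the replicate, so libraries were lettered by falling total. Genes were filtered with filterByExpr, scaled by TMM and tested with the quasi-likelihood test of edgeR 4.0.16 (R 4.3.3). That test gives no SE, so the SE was derived as the size of the log2 fold change over the square root of the F statistic. The intervals were taken from this SE and the t distribution. Benjamini-Hochberg adjustment was over 14334 genes, after a check on simulated data with 200 changed genes. There edgeR recovered 71% of changes of 0.5 on the log2 scale and 93% of changes of 1. Of the calls on simulated data, 6.29% were false with edgeR, 6.82% with limma-voom and 17% with DESeq2. In the real data 40.7% of the genes tested passed, far more than the 200 changed in the simulation, so these rates may not hold there. The tests set the difference between the groups against the spread between the 3 cultures of each group. Which cultures came from which animals is not given, so spread between animals may not be covered. Alternatives were DESeq2 1.42.0, limma-voom (limma 3.58.1), other scalings, filters and thresholds, and each library left out. Other genes were named by rule: in each list the 2 highest that passed as higher, the 2 lowest that passed as lower, any under the filter, and Ccn2, Acta2 and Postn, plus the 3 nearest patterns per gene among genes of at least 5 CPM. Some genes that this rule names are not reported here. Smad7, Skil and Dcn, and the marker genes beyond this rule, were chosen after their values were seen. The genes and lists were chosen with earlier results of these data known. Of 25140 gene identifiers 25086 were found in GENCODE M21.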

Additional observations from a re-analysis of the deposited data

How the results depend on the processing

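Tgfb2, Tgfb3, Acvrl1, Tgfbr3 and Eng kept their direction and passed the threshold under all 13 alternatives to each (DESeq2, limma-voom, other scalings and filters, each library left out, and B and E left out together). With 1 library left out, the log2 fold change ranged from 0.53 to 0.94 for Tgfb1, from -0.22 to -0.0089 for Tgfbr1 and from 0.25 to 0.43 for Tgfbr2, and the calls changed as given above. Tgfbr1 without both B and E was at -0.15 and passed, in a setting that narrows the spread by construction. The alternative without B and E, and the principal transcript as length, were chosen after seeing the data. With 1 library left out, 5 to 7 of the 8 genes passed, and 4489 to 5481 of all genes against 5828 in the full set. An adjusted p of 0.01 left 3595 genes and 5 of the 8 (2 higher, 3 lower), without Tgfb1 and Tgfbr2. A log2 fold change beyond 1 left 971 genes and 1 of the 8. Of the 8 places in the vehicle order of levels per length, 5 were kept with the longest transcript and 5 with the principal transcript. The difference between the groups in the log2 ratio of Tgfb3 to Tgfb1 was -0.14 with all libraries. This difference reversed to 0.11 without library E, and ranged from -0.36 to 0.11 over the libraries left out. No scaling moved the median of all genes by more than 0.03 on the log2 scale. No paired analysis was possible because the count columns name the group with no replicate number. Transcript levels do not give the amount of active ligand or of receptor on the cell surface.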
